A study of Homo sapiens with 6 samples.

Results

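Translation efficiency, here the number of ribosome footprint reads of a gene over its number of input RNA reads, was compared across genes within 1 condition, starved A549 cells carrying a control shRNA. A549 is an established human non-small cell lung cancer line. Protein-coding genes entered with at least 30 reads in both libraries, which left 3076 of the 19954 protein-coding genes in a count table of 60648 genes. The series asks what the RNA methyltransferase METTL16 does when nutrients run short, with A549 lines made stable for an shRNA against METTL16 or for the control shRNA, whose METTL16 gene is labelled wild type. The control cells were kept for 2 h in medium for amino acid starvation and took cycloheximide, which halts elongating ribosomes, for 5 min before lysis. The METTL16 shRNA cells, used for comparison, had the same cycloheximide step after 2 h in starvation medium or in complete medium. None of the 6 libraries of the series is from the control shRNA in complete medium. The shRNA and the medium therefore cannot be told apart where the starved control is set against the knockdown in complete medium.

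Each condition gave 1 input library, from chemically fragmented RNA of 40 to 60 nt, and 1 footprint library, from RNA of about 30 nt left by RNase I. With 1 library of each kind there is no replicate error to compare a value with, and no p-values were computed. The 95% intervals (exact conditional binomial, Clopper-Pearson) address counting error only and treat each read as an independent draw. The reads were amplified by PCR and no molecular identifiers are named, so the intervals may be too narrow even for counting error. The starved control had 537558 input and 781831 footprint reads, and the totals of the 4 knockdown libraries lay between 465303 and 775676.

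A ribosome covers a short stretch of mRNA, and the fragment it shields from RNase gives a footprint. Input reads come from fragments along the whole mRNA. Footprints per input read therefore follow how densely ribosomes sit along an mRNA on average, not their number per mRNA. When amino acids run out the kinase complex mTORC1 loses activity. The mRNAs known to depend on it most begin with a C and a run of pyrimidines, the 5' terminal oligopyrimidine (TOP) tract, and encode ribosomal proteins, elongation factors and poly(A)-binding protein. Lack of amino acids also activates the kinase GCN2, which lowers initiation in general, while some mRNAs with short upstream reading frames, such as ATF4, are known to escape this.

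METTL16 had 44 input and 60 footprint reads in the control, against 9 and 3 in the starved knockdown and 19 and 7 in the knockdown in complete medium. Of 9 epithelial markers all had an input read and 5 passed the minimum of 30, with keratin 7 (KRT7) first at 1000 input reads. The 5 alveolar markers, surfactant genes and NKX2-1 among them, had 0 reads in both libraries. Fibroblast markers summed to 8 input and 33 footprint reads over 9 genes, and leukocyte and erythroid markers to 3 and 21 over 11 genes.

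The median member had 1.41 footprint reads per input read, and this ratio was set to 0 on the log2 scale, so every value below is relative to the typical member. No spike-in is named, so the absolute number of ribosomes per mRNA cannot be read from these libraries. The central 90% of members lay between -1.49 and 1.25, a 6.65-fold range, while the median width of a counting interval was 1.01. A gene was called higher or lower when it lay at least 2-fold from the median with an interval excluding 0. On that rule 318 genes (10.3%) were called higher and 369 (12%) lower. The tails were unequal: 5 genes lay at least 4-fold above the median and 61 at least 4-fold below, the lowest 26.3-fold below and the highest 5.27-fold above. TMM scaling of the libraries in place of centring put the median member at 0.17, and then 453 genes were called higher and 261 lower.

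**Figure D1:**
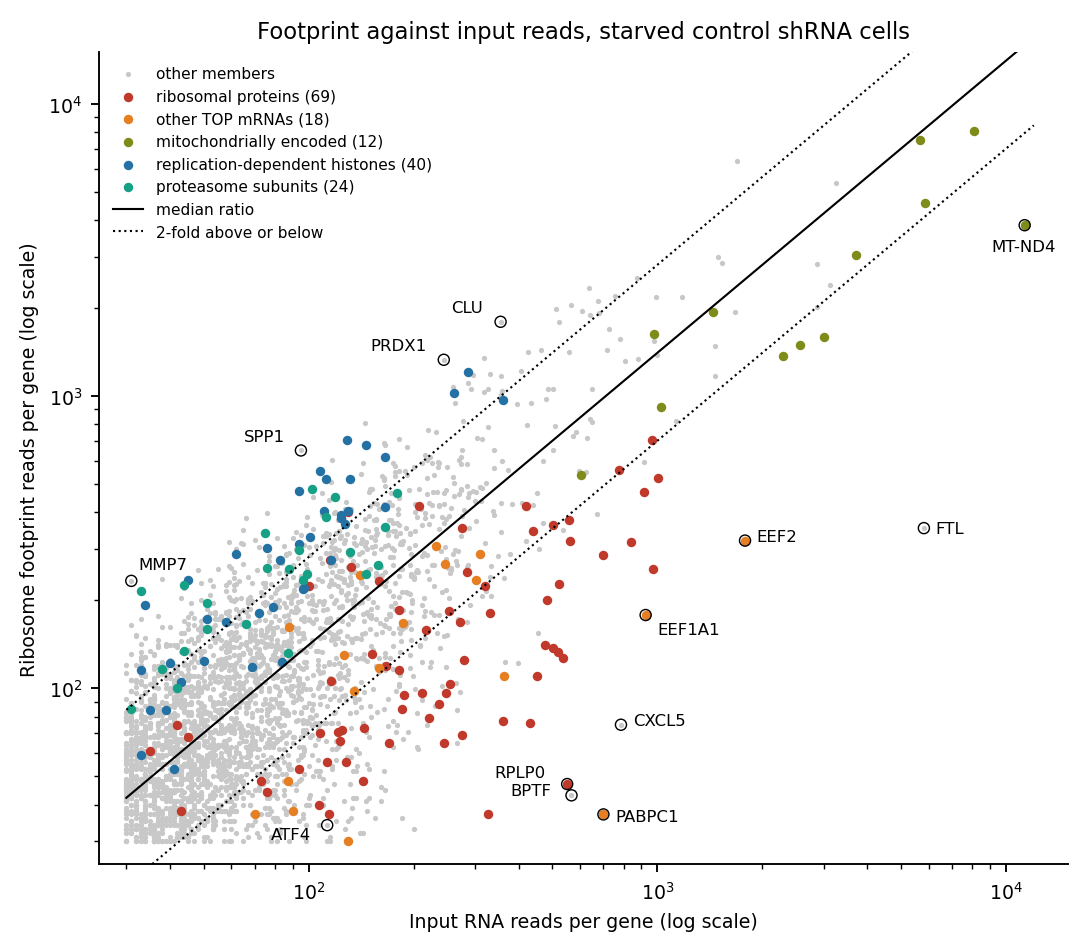
Input reads (x) against footprint reads (y) of the 3076 members in starved control cells, both on log axes, with 5 gene lists coloured. The solid line is the median ratio of 1.41, and the dotted lines lie 2-fold above and below it; ribosomal protein mRNAs (red) lie mostly under the lower dotted line and histone mRNAs (blue) mostly near or over the upper one.

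Among the mRNAs with the fewest footprints for their RNA were several that encode the translation apparatus itself. The RefSeq starts of several of them are shown because they hold the TOP tract, with 10 bases before the start and 20 from it on (GRCh38.p14, 5' to 3' on the gene's strand). Capitals mark a run that begins with C at the start and goes on with at least 4 more C or T. The first 5 hold the run and come from mRNAs called lower (RPL13A, with 520 input and 133 footprint reads, stood at -2.45), RPL3 is called lower with a shorter run, left in lower case, and SPP1, TIMP1 and MYL6 are among the 12 highest.
RPLP0, chr12:120201092-120201121, minus strand: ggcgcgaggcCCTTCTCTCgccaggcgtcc
EEF2, chr19:3985444-3985473, minus strand: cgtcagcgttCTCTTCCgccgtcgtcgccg
EEF1A1, chr6:73521013-73521042, minus strand: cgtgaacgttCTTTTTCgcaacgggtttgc
RPS12, chr6:132814559-132814588, plus strand: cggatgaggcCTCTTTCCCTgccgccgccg
RPL13A, chr19:49487598-49487627, plus strand: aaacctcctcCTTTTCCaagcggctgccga
RPL3, chr22:39319604-39319633, minus strand: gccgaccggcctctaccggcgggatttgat
SPP1, chr4:87975704-87975733, plus strand: ggttgtcagcagcagcaggaggaggcagag
TIMP1, chrX:47582426-47582455, plus strand: aggccctgccgccatcgccgcagatccagc
MYL6, chr12:56158349-56158378, plus strand: gagagtcggagccattactgcaggaaaagg

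Of 69 ribosomal protein mRNAs measured, 46 were called lower and 1 higher, and their median was -1.36, against 0 for all members. The large subunit (42 genes, 29 lower, 0 higher) had a median of -1.37 and the small subunit (27 genes, 17 lower, 1 higher) one of -1.31. RPLP0, which encodes the stalk protein that binds elongation factors, had 551 input reads and 47 footprint reads, a value of -4.03 (-4.50 to -3.61). RPS12 had 327 and 37 reads and stood at -3.62 (-4.17 to -3.14). RPL3, near the peptidyl transferase centre, followed with 432 and 76 reads at -2.99, and RPL7A with 360 and 77 reads at -2.71.

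Not every ribosomal protein mRNA was low. RPS27L, a paralog of RPS27, had 130 input and 400 footprint reads and was the member called higher, at 1.13 (0.84 to 1.43). FAU, which encodes RPS30 fused to a ubiquitin-like protein, stood at 0.76 from 115 and 274 reads. RPL41 was at 0.67 and RPL27 at 0.53. Of the 15 listed genes that the minimum left out, 9 had enough input but too few footprints and 0 the reverse, so the rule removed low genes from this list. RPL12 had 245 input and 10 footprint reads, and RPS2 had 428 and 27.

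Other mRNAs of the TOP class showed the same side with a wider spread. Of 18 measured, 8 were called lower and 0 higher, with a median of -0.94. PABPC1, the cytoplasmic poly(A)-binding protein (ENSG00000070756.17, chromosome 8, 100702916 to 100722088), had 700 input reads and 37 footprint reads, the lowest value of all members at -4.71 (-5.25 to -4.26). EEF2 (ENSG00000167658.16, chromosome 19, 3976056 to 3985463), the translocation factor of elongation, had 1783 and 320 reads and stood at -2.97 (-3.15 to -2.80). EEF1A1, which brings aminoacyl-tRNA to the ribosome, had 925 and 178 reads and stood at -2.87. At the upper end were COX7C at 0.39 and NACA, a subunit of the nascent polypeptide-associated complex, at 0.31, while its partner BTF3 was at -0.09. The intermediate filament gene VIM, also on this list, had 301 and 234 reads and stood at -0.85. TPT1 (254 input, 27 footprint reads) and EIF4B (126 and 20) fell short of the footprint minimum.

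Many ribosomal protein genes have processed pseudogenes, copies whose reads may match more than 1 place, and how such reads were counted is not given in the sources used here. Counting pseudogenes by name (the symbol followed by P and a number), members outside the ribosomal protein and TOP lists had medians of -0.01 with 0 such copies (2366 genes), 0.14 with 1 to 4 (513) and 0.12 with 5 or more (110). Within these lists the medians were -0.89 with 0 copies (8 genes), -1.24 with 1 to 4 (26) and -1.38 with 5 or more (53). EEF2 had 0 named copies and EEF1A1 had 39. The 4 ribosomal protein list members with 0 copies were RACK1 at -0.97 and the paralogs RPL36AL at 0.10, RPL22L1 at 0.30 and RPS27L at 1.13. The part of shared sequence in these values was not tested.

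Outside the ribosomal protein and TOP lists the lowest mRNA was FTL, the light chain of the iron store ferritin (ENSG00000087086.15, chromosome 19, 48965309 to 48966879). It had 5808 input reads and 353 footprint reads, a value of -4.53 (-4.69 to -4.38), and 16 named pseudogenes. Ferritin mRNAs are known to be held off ribosomes by iron regulatory proteins, which bind a hairpin near the 5' end with the loop CAGTG and 1 more base. The 30 bases of FTL with this loop in capitals are shown because this is the site those proteins bind.
FTL, chr19:48965329-48965358, plus strand: gtctgtctcttgcttcaaCAGTGTttggac
The 5 letters CAGTG are common in such windows: 6.48% of 35116 RefSeq starts hold them in their first 50 bases on the gene's strand. Over the 199 members with these letters the median was -0.02, against 0.01 for the others, so the letters alone did not go with low values. The heavy chain gene FTH1 had 760 input and 18 footprint reads, -5.85 on the same scale (-6.65 to -5.22), and missed the footprint minimum.

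Other low genes outside those lists have other known roles. BPTF, a subunit of the chromatin remodeller NURF, had 567 input and 43 footprint reads and stood at -4.20 (-4.69 to -3.76). CXCL5, a neutrophil-attracting chemokine, had 786 and 75 reads and stood at -3.87 (-4.24 to -3.54). YBX1, an mRNA-binding protein, had 201 and 33 reads, a value of -3.08. CXCL5 and BPTF had few footprints for their RNA in the other conditions too: CXCL5 had 332 input and 20 footprint reads in the starved knockdown and 594 and 24 in complete medium, and BPTF had 231 and 9, and 362 and 19. YBX1 had 163 and 26 reads in the starved knockdown and 161 and 91 in complete medium, where its value was -0.61 on the scale of genes measured in all libraries. Further low genes were ABLIM1, an actin-binding protein, at -2.84 (185 and 36 reads), the kinase gene UHMK1 at -2.63 (143 and 32), the lysosomal protease gene CTSD at -2.58 (155 and 36) and IRAK1, a kinase of interleukin-1 signalling, at -2.52 (266 and 65).

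**Figure D2:**
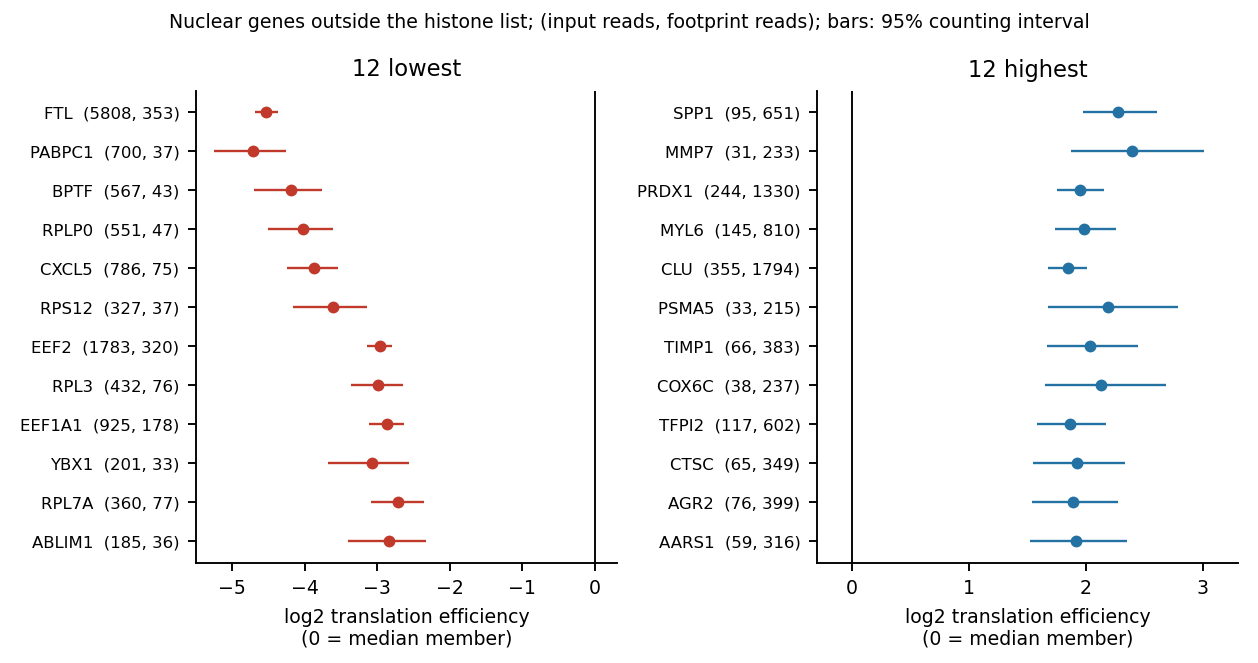
The 12 lowest (left) and 12 highest (right) nuclear genes outside the histone list, ordered by the interval end nearest 0, with log2 translation efficiency on the x axis, input and footprint reads in brackets and bars for the 95% counting interval. The lowest reach -4.71 (PABPC1) while the highest reach 2.40 (MMP7).

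The mRNAs listed for regulation by upstream reading frames were low as a group. Of 11 measured, 6 were called lower and 0 higher, with a median of -1.05. ATF4, the transcription factor of the amino acid response, had 113 input and 34 footprint reads and stood at -2.21 (-2.82 to -1.66). PPP1R15A, which encodes the phosphatase subunit GADD34, was at -1.69 (72 and 31 reads) and SLC35A4 at -1.71 (101 and 43). CEBPB stood highest at 0.27 and EPRS1, a glutamyl-prolyl-tRNA synthetase, at 0.17. Footprints on upstream frames and on the main frame are summed in a count per gene, so these values do not say where on the mRNA the ribosomes sat. In the starved knockdown ATF4 had 79 input and 33 footprint reads, and 117 and 28 in complete medium.

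Genes that ATF4 is known to induce were spread around the typical member. Of 19 measured, 1 was called higher and 3 lower, with a median of 0.07. SLC3A2, the heavy chain of amino acid transporters, was the high one, with 637 input and 2345 footprint reads at 1.39 (1.26 to 1.52). Its partner SLC7A5, the light chain that imports leucine, had 2864 and 2012 reads and lay 2-fold below the median (-1.08 to -0.92), or at -0.83 with TMM scaling, where it is not called. TRIB3 was at -1.24 and CEBPG at -1.18. Of 17 cytosolic tRNA synthetases 3 were called higher and 0 lower, with a median of 0.48. AARS1 led at 1.92 (59 and 316 reads), ahead of MARS1 at 1.24 and NARS1 at 1.23, while QARS1 stood at -0.87.

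Translation initiation factors had a median of -0.08 (0.09 with TMM scaling), while 2 of 20 were called higher and 3 lower. The helicase EIF4A3, known from the exon junction complex, was at 1.09 and EIF6 at 1.04 (0.99 with total counts, where it is not called). EIF2S3, a subunit of the factor that carries the initiator tRNA, was at -2.37 (115 and 31 reads), EIF1 at -1.12 and the scaffold gene EIF4G1 at -1.01, the last 2 not called with TMM scaling. Genes of amino acid sensing and mTORC1 (9 measured) had a median of -0.20. The GTPase gene RRAGA was called higher at 1.17, and LAMTOR1 at -1.51 and AKT1S1 at -1.09 were called lower, AKT1S1 not with TMM scaling.

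The highest values of single genes outside the histones came from genes of varied known roles. SPP1, which encodes the secreted phosphoprotein osteopontin (ENSG00000118785.15, chromosome 4, 87975714 to 87983411), had 95 input reads and 651 footprint reads, a value of 2.28 (1.97 to 2.61). MMP7, a matrix metalloproteinase (ENSG00000137673.9, chromosome 11, 102520508 to 102530747), had 31 and 233 reads and the highest value of all members, 2.40 (1.87 to 3.01). The peroxiredoxin gene PRDX1 had 244 and 1330 reads and stood at 1.95 (1.76 to 2.16). CLU, the secreted chaperone clusterin, had 355 and 1794 reads and stood at 1.84 (1.68 to 2.01).

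The remaining 8 of the 12 highest lay between 1.87 and 2.19. They were the protease inhibitor genes TIMP1 at 2.04 (66 and 383 reads) and TFPI2 at 1.87 (117 and 602), the myosin light chain gene MYL6 at 1.99 (145 and 810), the proteasome subunit gene PSMA5 at 2.19 (33 and 215), the cytochrome c oxidase subunit gene COX6C at 2.13 (38 and 237), the lysosomal protease gene CTSC at 1.92, the disulfide isomerase family gene AGR2 at 1.89 and AARS1.

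Replication-dependent histones had the highest median of the lists, 1.15, with 25 of 40 called higher and 0 lower. H4C8 had 129 input and 706 footprint reads and stood at 1.96 (1.69 to 2.24), and H2BC3 had 34 and 192 reads at 1.99. The lowest was H2AC14 at -0.12. Histone genes are near copies of each other, so their reads can be split between genes, and in bulk RNA a different share of cells making histones and a different level per cell cannot be told apart.

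Of the proteasome subunits measured 24 of 24 stood above 0, with 13 called higher and a median of 1.07. The minimum left out 7 listed subunits, 3 of them with enough footprints and too little input. Among the 4 with too few reads of both kinds, PSMC1 (22 input, 19 footprint reads) and PSMA1 (19 and 21) had fewer footprints per input read than the typical member. PSMA3 was at 1.86 (44 and 226 reads), PSMB3 at 1.73 (102 and 479), and the lowest, PSMC3, an ATPase of the cap, at 0.11. Genes of endoplasmic reticulum folding and translocation had 12 of 25 called higher and 0 lower, with a median of 0.97. Among them the oligosaccharyltransferase genes DAD1, at 1.79, RPN2, at 1.57, and STT3A, at 1.46, stood high, while STT3B, the catalytic subunit of the other form of that enzyme, was at 0.12 and XBP1 at 0.06.

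Of 19 autophagy and lysosome genes 10 were called higher and 2 lower, and the median was 1.01. CTSL, a cathepsin protease, had 318 and 1349 reads and stood at 1.59, the membrane protein genes LAMP1 and LAMP2 at 1.59 and 1.26. The members called lower were CTSD, above, and the autophagy kinase gene ULK1 at -1.17 (61 and 38 reads), the latter not called with TMM scaling.

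Nuclear genes of oxidative phosphorylation had 17 of 47 called higher and 0 lower, with 46 above 0 and a median of 0.76. COX6C led, followed by SDHB, the iron-sulfur subunit of succinate dehydrogenase, at 1.87 (33 and 172 reads) and NDUFA4 at 1.77. The mRNAs that mitochondria make themselves lay on the other side, with 0 of 12 called higher, 4 lower and a median of -0.72. MT-ND4 had 11298 input and 3840 footprint reads and stood at -2.05. MT-ATP6 was at -1.40, MT-ND2 at -1.27 and MT-ND4L at -1.24. MT-ND3 was the highest at 0.25, and MT-CYB, with 5665 and 7491 reads, was at -0.09. Mitochondrial ribosomes, which read these mRNAs, are known to be insensitive to cycloheximide. Mitochondrial ribosomal proteins, made in the cytosol, had 4 of 27 called higher, 0 lower and a median of 0.50.

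**Figure D3:**
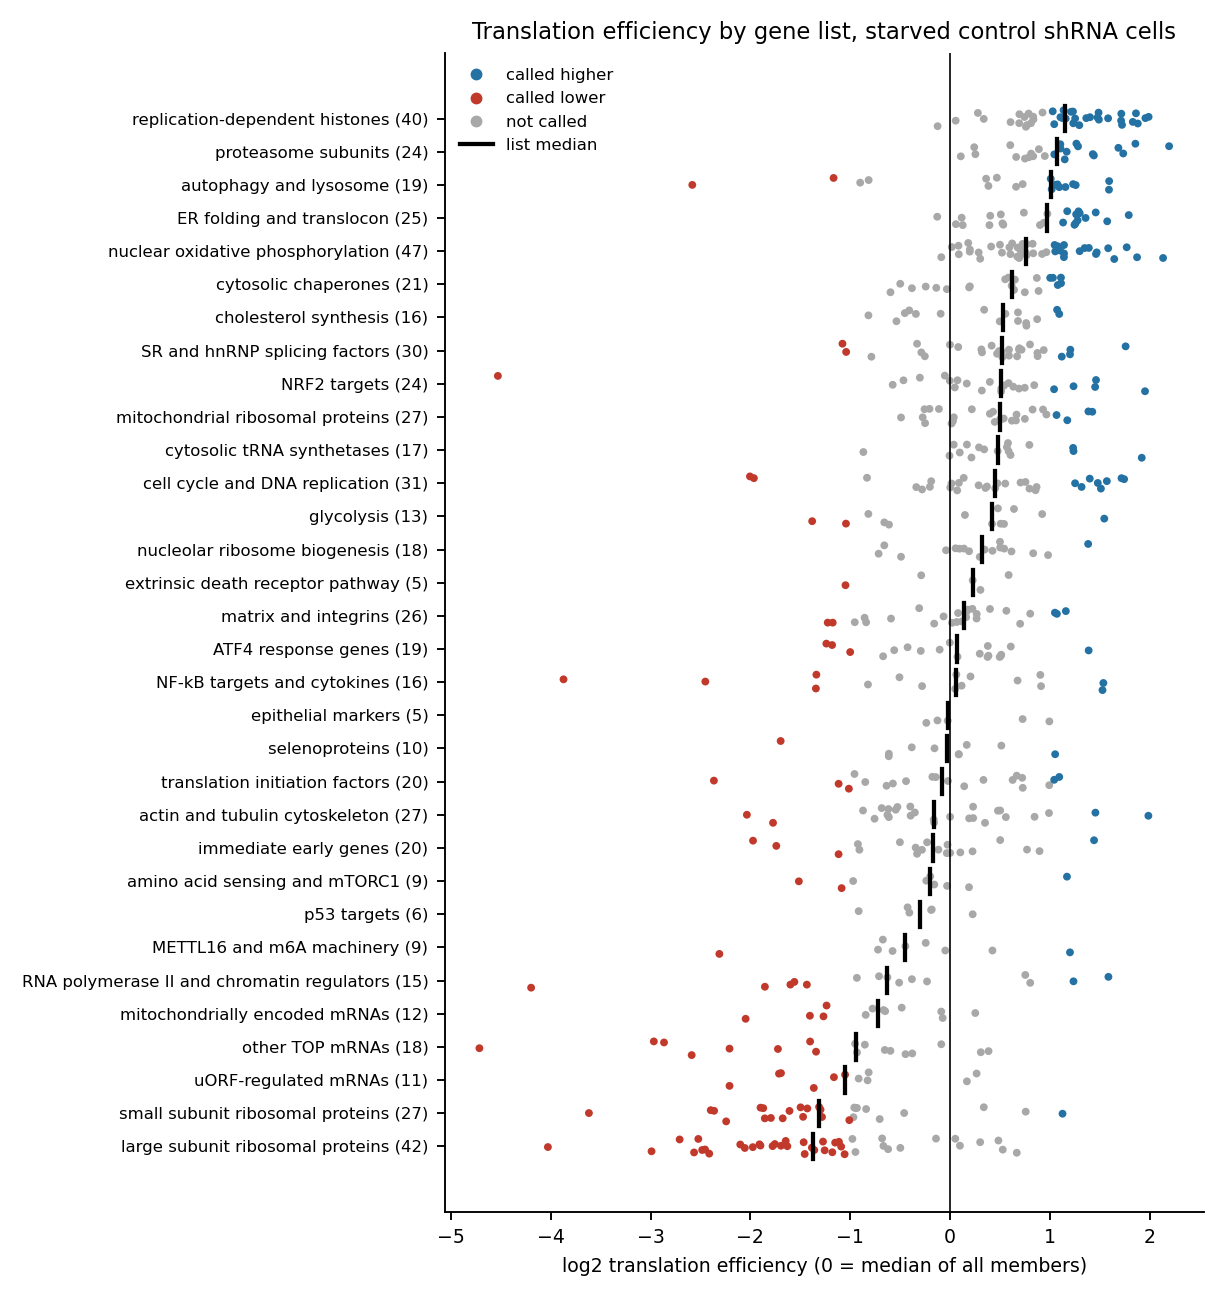
Log2 translation efficiency (x) of the members of 32 gene lists with at least 5 members, 1 point per gene, with blue for called higher, red for called lower, grey for neither and a bar at the list median. Medians run from -1.37 for large subunit ribosomal proteins to 1.15 for replication-dependent histones.

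Several lists held genes at both ends. The shares over all members, 10.3% called higher and 12% lower, are the background for these counts. Among 16 NF-kB targets and cytokines, 2 were called higher and 4 lower around a median of 0.06. The chemokine gene CCL2 was at 1.54 (166 and 678 reads) and IL6 at 1.53 (49 and 200), against CXCL5, the apoptosis inhibitor gene BIRC3 at -2.45 (161 and 41) and the cytokine gene LIF at -1.34. The 20 immediate early genes had a median of -0.17. The matricellular gene CCN1 was called higher at 1.44, and the mRNA decay factor gene ZFP36 at -1.97 (149 and 53 reads), JUND at -1.74 and DUSP5 at -1.12 (not called with TMM scaling) were called lower. NRF2 targets, the genes of the oxidative stress response, had 5 of 24 called higher with a median of 0.51, PRDX1, NQO1 at 1.46 (513 and 1988 reads) and thioredoxin (TXN) at 1.45 among them, while the 1 called lower was FTL.

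Of 15 genes of RNA polymerase II and chromatin regulation 2 were called higher and 5 lower, and the median was -0.63. The small polymerase subunit gene POLR2G was at 1.59 and POLR2C at 1.24, against BPTF and the Mediator gene MED13 at -1.86. Cell cycle genes had 8 of 31 called higher, with CDK1 at 1.74 and CCNB1 at 1.72, and 2 lower, MKI67 at 4-fold below the median (98 and 34 reads) and CDK6 at -1.97, with a median of 0.45. Among 30 SR and hnRNP splicing factors 4 were called higher and 2 lower, with a median of 0.52. SRSF7 was at 1.76, and SRRM2, a long scaffold of splicing, at -1.08, where TMM scaling leaves it uncalled. Genes of the actin and tubulin cytoskeleton had a median of -0.16 (0.0035 with TMM scaling), with MYL6 and TUBB4B (1.46) called higher and FLNA, which encodes a filamin that crosslinks actin, called lower at -2.04 from 453 and 155 reads.

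Glycolysis had 1 of 13 called higher, PGK1 at 1.54, and 2 lower, LDHB at -1.38 and HK1 at -1.04 (not called with TMM scaling), with a median of 0.42. GAPDH had 1463 and 1166 reads and stood at -0.82, and has 65 named pseudogenes. The beta-actin gene ACTB, at 0.23 from 3241 and 5345 reads, and ACTG1, at -0.87 from 3129 and 2403, encode near-identical actins, and reads in sequence they share could be split between them. Of 21 cytosolic and mitochondrial chaperones 5 were called higher and 0 lower (median 0.62), the mitochondrial TRAP1 at 1.11 among those higher. Of 16 cholesterol synthesis genes 2 were higher and 0 lower (median 0.53). Among 18 nucleolar factors of ribosome biogenesis 1 was higher and 0 lower (median 0.32), and among 26 matrix and integrin genes 3 were higher and 2 lower (median 0.14).

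The extrinsic death receptors, named in the study's title, were thinly covered. Of 16 listed death receptor pathway genes 5 passed the minimum, with a median of 0.23 and 1 called lower, TNFRSF21 at -1.05 (112 and 76 reads), which is not called with TMM scaling. The DR5 gene TNFRSF10B, a receptor for TRAIL, had 105 input and 173 footprint reads and stood at 0.23 (-0.13 to 0.59). TNFRSF10A had 31 and 66 reads at 0.59 (-0.04 to 1.26), TNFRSF1A was at -0.29 (-0.56 to -0.02), and FAS, with 10 input reads, missed the minimum. Of METTL16 and the m6A genes 9 were measured, with a median of -0.45. Among them METTL16 stood at -0.05 and its target MAT2A, from 154 and 291 reads, at 0.42. The demethylase gene ALKBH5 was the lowest at -2.31 (146 and 41 reads) and HNRNPA2B1 the highest at 1.20. Selenoproteins (10 genes, 1 higher, 1 lower) had a median of -0.03, p53 targets (6 genes, 0 called) one of -0.30, and epithelial markers (5 genes, 0 called) one of -0.02. For the selenoproteins and the epithelial markers the sign turns with TMM scaling, to 0.13 and 0.14.

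Features of the gene that had no part in choosing the members also went with the value. Of the 3076 members 2562 (83.3%) have a start in the RefSeq promoter table (GRCh38.p14). A TOP-like start, a C at a listed start followed by at least 4 more C or T on the gene's strand, was found in 250 of them (9.76%). A gene counted if any of its listed starts held the run. Of the 1788 members with 1 listed start, 148 (8.28%) had it. Counted by single starts, the share was 4.07% of all 35116 listed starts. The median was -0.37 with it and 0.05 without it, and 26.4% of the genes with it were called lower, against 9.95% of those without. Of these 250 genes, 41 encode ribosomal proteins (of 57 with a listed start), 10 are on the other TOP list (of 13) and 199 are on neither. Outside both lists the difference was smaller, with medians of -0.18 with the run and 0.06 without it. Among ribosomal protein mRNAs the 41 with the run had a median of -1.38 and the 16 without it one of -1.09, so the listed start alone did not separate low from high. HMGA1, which encodes a chromatin architectural protein, was the lowest of the 199 genes with the run outside both lists, by the interval end nearest 0, at -2.20 from 399 and 122 reads (chosen after its values were seen).

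Longer genes had lower values. Over quintiles of the deposited gene length, from the shortest to the longest, the medians were 0.42, 0.08, -0.06, -0.15 and -0.32, and Spearman's rho across the 3076 members was -0.25. The deposited length covers the whole gene model, untranslated regions included. RPS12, at -3.62, has a length of 639 bases and so belongs to the shortest quintile, which ends at 2983 bases. Genes with the most G and C in the first 50 bases (at least 74%) had a median of -0.45, while the other quintiles lay between 0.07 and 0.19. Input reads share the denominator with the value, and the minimum of 30 reads in both libraries keeps genes with few input reads from very low values. Across quintiles of input reads the median went from 0.24 to -0.19. In the first quintile (30 to 40 input reads) 0% were called lower, against 24.6% in the last. The 0% was fixed in advance, since with at least 30 footprints no gene there could lie 2-fold below the median. This trend is thus in part set by the rule. Counts of genes called lower carry the same limit in lists with few input reads. These are descriptions across genes of 1 pair of libraries, and their parts in the values of single lists were not tested.

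**Figure D4:**
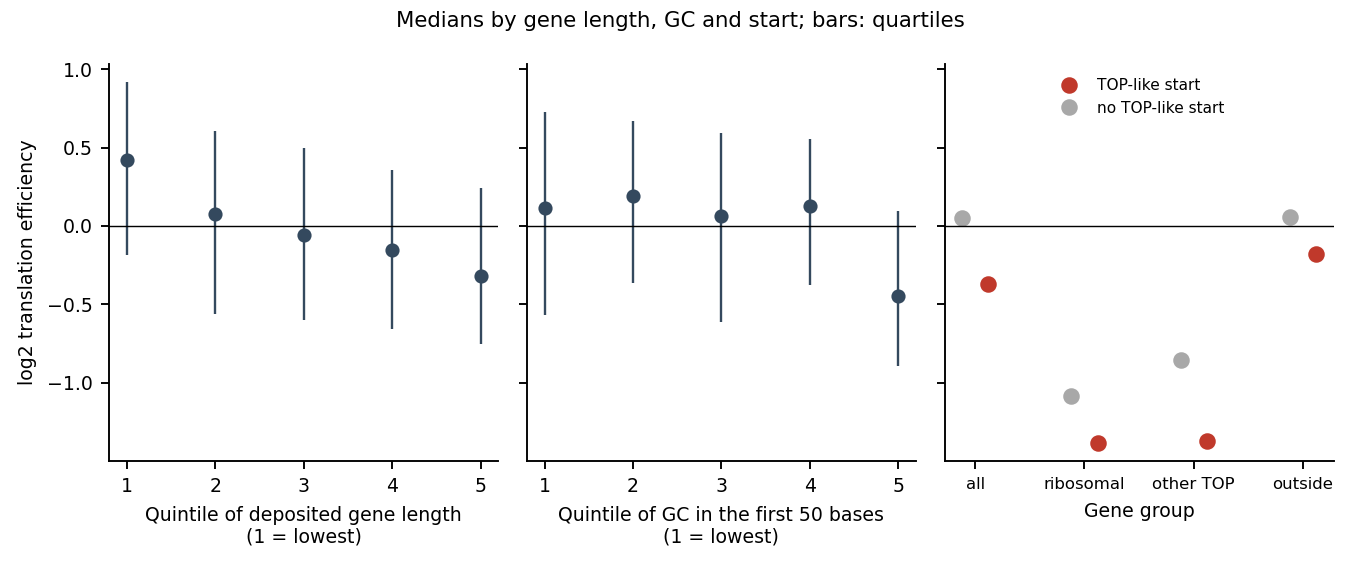
Median log2 translation efficiency by quintiles of deposited gene length (left) and of GC in the first 50 bases (middle), with quartiles as bars, and medians with (red) and without (grey) a TOP-like start by gene group (right). The medians fall from 0.42 to -0.32 over the length quintiles, and the highest GC quintile stands at -0.45.

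The same genes could be followed in libraries that the choice of members did not use. For this, 1822 genes with at least 30 reads in all 6 libraries were centred on their own median in each condition, which shifts the starved control by a constant. Calls on this set were 144 higher (7.9%) and 254 lower (13.9%) for the control, 175 (9.6%) and 188 (10.3%) for the starved knockdown, and 110 (6.04%) and 185 (10.2%) for complete medium. Across these genes the values of the starved control correlated with Pearson's r of 0.81 with the starved knockdown and 0.64 with the knockdown in complete medium. Of the 144 genes called higher in the control, 140 lay above 0 in the starved knockdown and 135 in complete medium. Of the 254 called lower, 244 and 223 lay below 0. By the centring, about as many of the 1822 genes lie above 0 as below it in each condition. Fewer genes met the call rule again. Of the higher genes 76 (52.8%) did so in the starved knockdown and 46 (31.9%) in complete medium. Of the lower genes 129 (50.8%) and 103 (40.6%) did so, and 2 were called higher in complete medium.

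Among the 1822, the 12 genes furthest below their value in complete medium, by the interval end nearest 0, were 10 ribosomal protein and other TOP mRNAs, FASN and GAPDH. Given for the starved control first, the starved knockdown next and complete medium last, 57 ribosomal protein mRNAs had medians of -1.60, -1.71 and -0.09. Of the 57, 56 were lower in the starved control than in complete medium, 50 with an interval of the difference excluding 0, against 872 and 346 of the 1822 genes. Set against the starved knockdown, 12 of the 57 were lower in the starved control and 10 higher with an interval excluding 0. The matching counts over the 1822 genes were 293 and 198. Over the other 15 TOP mRNAs the medians were -1.09, -1.35 and 0.44. All 15 were lower in the starved control than in complete medium, 14 with an interval excluding 0. By such an interval 2 were lower and 3 higher than in the starved knockdown. EEF2 had 320 footprints on 1783 input reads in the starved control, 238 on 1200 in the starved knockdown and 1420 on 1139 in complete medium, a difference from the last of -3.73 (-3.94 to -3.53). PABPC1 had 37 on 700, 9 on 492 and 213 on 704 reads in the same order.

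Genes outside those lists were among the lower ones too. FTL, at -4.76 on this scale in the starved control, was at -4.11 in the starved knockdown and at -2.72 in complete medium, the lowest of the 1822 genes in each of the 3 conditions. FASN, the fatty acid synthase, stood at -1.49 against 0.70 in complete medium, from 671 input and 395 footprint reads against 666 and 937. GAPDH stood at -1.05 against 1.01. The 12 mitochondrially encoded mRNAs had medians of -0.96, -0.66 and -0.37 in the 3 conditions. Of these, 12 of 12 were lower in the starved control than in complete medium, 11 with an interval excluding 0, against 872 and 346 of the 1822 genes.

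The medians of histones, proteasome subunits, endoplasmic reticulum genes and lysosome genes lay above 0 in all 3 conditions. Not all lists above 0 in the starved control stayed there. In the starved knockdown mitochondrial ribosomal proteins (14 genes) had a median of -0.08, and SR and hnRNP splicing factors (25) one of -0.05. Histones (31 genes) had medians of 1.00, 1.13 and 0.63, with 16 higher in the starved control than in complete medium and 0 lower by an interval excluding 0, against 351 and 346 of the 1822 genes. Proteasome subunits (23 genes) had 0.87, 0.80 and 0.67, endoplasmic reticulum genes (23) 0.90, 0.86 and 0.45, and lysosome genes (14) 0.83, 0.86 and 0.52. SPP1 was at 2.04, 1.74 and 1.40, and MMP7 at 2.16, 2.03 and 1.08. By the interval end nearest 0, the genes furthest above their value in complete medium were COX8A, a cytochrome c oxidase subunit, by 1.98 (1.30 to 2.65), the histone gene H2BC21 by 1.78 (1.21 to 2.36), IL6ST, the receptor subunit gp130, by 1.59 (1.17 to 2.01) and SDHB by 1.90 (1.12 to 2.68). The 21 cytosolic and mitochondrial chaperones had medians of 0.38 in the control, -0.05 in the starved knockdown and 0.74 in complete medium. On the 4 counts of each gene, 9 of the 21 were higher in the starved control than in the starved knockdown and 2 lower, against 198 and 293 of the 1822 genes. HSPA8, the constitutive HSP70, was at -0.83 in the starved control, from 594 input and 552 footprint reads, at -1.32 in the starved knockdown and at 0.43 in complete medium.

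**Figure D5:**
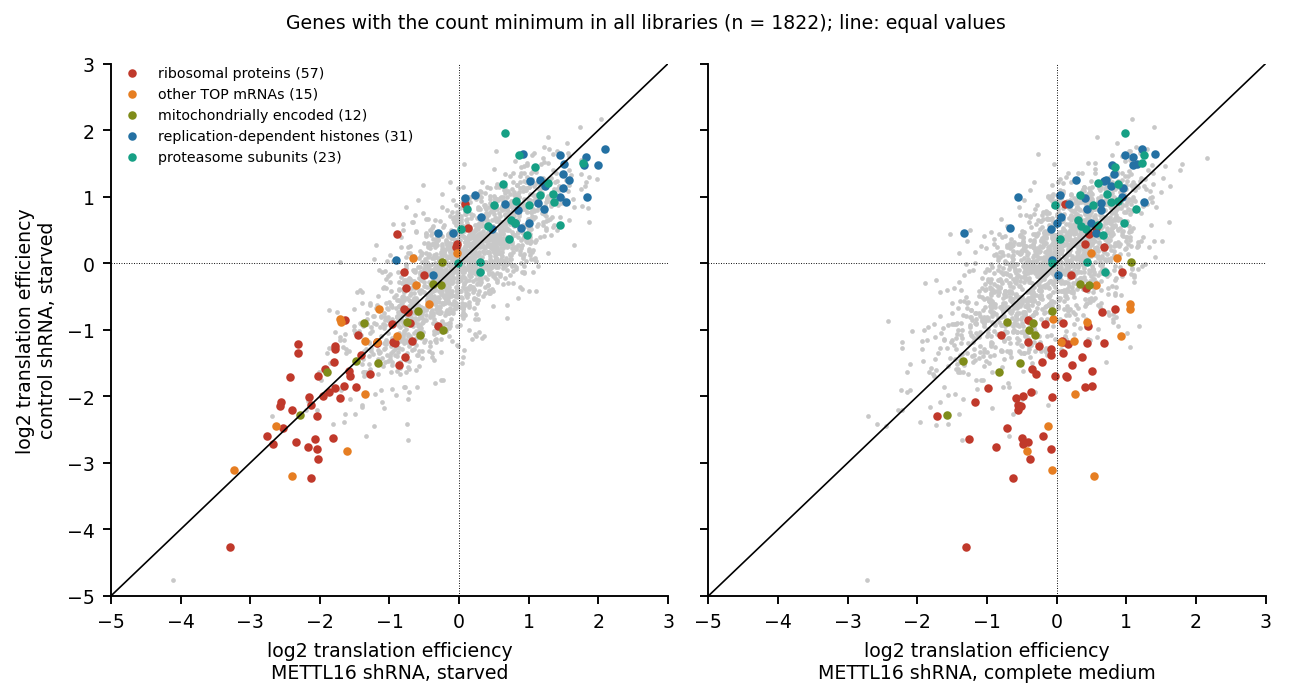
Log2 translation efficiency of 1822 genes in the starved control (y) against the starved METTL16 knockdown (left) and the knockdown in complete medium (right), each centred on these genes. Ribosomal protein (red) and other TOP mRNAs (orange) lie on both sides of the line of equal values on the left and almost all below it on the right. There 56 of 57 and 15 of 15 are lower in the starved control, against 872 of all 1822 genes.

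The minimum of 30 reads sets which genes are seen. It left out 693 protein-coding genes with enough input reads but fewer footprints, and 1209 with enough footprints but less input. Genes with exactly 30 reads in 1 library (89, just inside) had values from -2.59 to 1.49, and genes with 29 in 1 library and enough in the other (101, just outside) values from -2.12 to 2.13. The highly read genes on the low side were FTH1, RPS2, TPT1, RPL12 and the phosphatase gene PTP4A2, which had 188 input and 17 footprint reads. On the high side stood the keratin gene KRT85, with 23 input and 239 footprint reads, and ALG8, a glucosyltransferase of the endoplasmic reticulum, with 29 and 181. Whole lists were thinned unevenly: of 49 mitochondrial ribosomal protein genes left out 26 had enough footprints and too little input, as had 13 of 25 nuclear oxidative phosphorylation genes, so genes on the high side of these lists are missing from their counts.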

How the data were processed

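The authors deposited raw counts per gene for the 6 libraries, with a gene length and no normalization. They also deposited TPM values and a ratio of footprint TPM to input TPM per condition, where each TPM is a count over the gene length, scaled over all genes of the table (checked on the files). Per the submitters' processing notes, reads went through featureCounts 2.0.1, STAR 2.7.5c, Bowtie2 2.2.5 and cutadapt 2.8 (listed without order) with GRCh38; strand setting and the treatment of multiply mapped reads are not given in the sources used here. A record broken over 3 lines was left out. Values are log2((footprints + 0.5)/(input + 0.5)) minus the members' median, computed with scipy 1.17.1, numpy 2.4.6 and pandas 2.3.3 in Python 3.11.15 and drawn with matplotlib 3.10.9; scaling factors came from edgeR 4.0.16 (R 4.3.3), which served for no test. Differences between conditions have Poisson delta-method intervals on 4 counts. The code was tested on simulated counts. Groups follow the sample titles. The members, the 34 gene lists and the rule for named genes were chosen with earlier results of these data known. Named were the 12 highest and 12 lowest nuclear genes outside the histones by the interval end nearest 0, the 8 lowest outside the ribosomal protein and TOP lists, the 3 highest and 3 lowest of each list, and a few in any case, ATF4, METTL16, FTL, FTH1 and death receptors among them. Some genes were named outside this rule, chosen after their values were seen. They are those outside the read minimum, those with the largest differences between conditions and those in the paragraph on pseudogenes. Some single-gene results are left out. The lists of fibroblast and of blood cell markers had 0 members.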

Additional observations from a re-analysis of the deposited data

Results flagged for a closer look

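Several list medians lay on opposite sides of 0 in the starved control and in the METTL16 knockdown in complete medium. Values are on the scale of genes measured in all libraries, with the starved control first. Among lists with at least 5 such genes, 3 stood furthest from 0 on both sides. Other TOP mRNAs stood at -1.09 and 0.44, a difference of -1.53. Translation initiation factors stood at -0.26 and 0.43 and the 5 epithelial markers at -0.26 and 0.43, each a difference of -0.68. Centred on all 3076 members, initiation factors stood at -0.08 and epithelial markers at -0.02 in the starved control. Nearer 0 were ATF4 response genes (0.06 and -0.44), the cytoskeleton (-0.40 and 0.10), matrix genes (-0.06 and 0.0045) and RNA polymerase II and chromatin genes (-0.02 and 0.15). METTL16 and the m6A genes, with only 4 measured, stood at -0.31 and 0.55. With 1 library per group the differences between these medians were not tested, and the shRNA and the medium cannot be told apart. Outside protein-coding genes, 5 lncRNA genes had at least 30 reads in both libraries of the starved control, with values from -2.97 to 1.49 and a median of -1.07; no control sample gives a background for them.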

How the results depend on the processing

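The counts of called genes follow the read minimum and the call rule. Higher and lower genes numbered 795 and 943 of 6548 with a minimum of 10 reads, 68 and 86 of 691 with 100, 1305 and 1521 of 10542 with 1, and 101 and 163 of 3076 when the whole interval had to lie beyond 2-fold. Scaling, the authors' deposited ratio, leaving out mitochondrially encoded and histone genes and, added after seeing the data, leaving out the ribosomal protein and TOP lists or genes with a named pseudogene kept both counts within 1.5 times. Medians of lists moved beyond the typical counting interval of their members as follows. With TMM scaling mitochondrially encoded mRNAs were at -0.55, cytoskeleton genes at 0.0035, lysosome genes at 1.18 and epithelial markers at 0.14. With a minimum of 100 the medians were -0.57 for initiation factors, -0.85 for mitochondrially encoded mRNAs, -0.47 for cholesterol synthesis, -0.17 for nucleolar factors, -0.084 for the cell cycle and -0.20 for epithelial markers. With a minimum of 10, mitochondrially encoded mRNAs were at -0.61, and with 1 at -0.59, cytoskeleton genes at 0.025, nucleolar factors at 0.71 and epithelial markers at 0.16. Over genes with 0 named pseudogenes, ribosomal proteins reversed, to 0.21 (large subunit, 2 genes) and 0.089 (small subunit, 2 genes), other TOP mRNAs were at -1.75 (4 genes), glycolysis at 0.16, the cytoskeleton at -0.52 and epithelial markers at 0.74. The cause of these shifts was not tested beyond the change in which genes enter. Of 22 named genes near the 2-fold limit, 11 lost and 11 gained a call under another scaling; the losses were SLC7A5, EIF4G1, HNRNPA3, HK1, TNFRSF21, SRRM2, AKT1S1, EIF1, DUSP5 and ULK1 with TMM and EIF6 with total counts. The difference of -0.42 between members with and without a TOP-like start was -0.53 with at least 6 pyrimidines, -0.23 with a start within 3 bases, -0.49 over genes with 1 listed start and -0.24 outside the lists. The alternative with coding lengths and the amino acid composition were not run, since no protein table was used here. No paired analysis was possible because each group has 1 library, which also leaves no replicate to leave out. The median counting interval of a gene was 1.01 wide on the log2 scale, so small differences between single genes were not detectable at this depth.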
